A study of Homo sapiens with 32 samples.

Results

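The ZNF genes of human chromosome 19 were examined in HEK293, a line of cultured cells from human embryonic kidney, after transient transfection with the angiotensin II receptor AT1R. Members were all rows of the 2 count tables that were annotated as protein coding, lay on chromosome 19 and had a name starting with ZNF and a number. This gave 253 of the 57773 genes in each table, out of 515 protein-coding ZNF genes in the genome and 1481 protein-coding genes on chromosome 19. All groups were transfected with the AT1R plasmid, so that no group without it was compared, and the share of cells that took it up was not measured here. Cells were kept without serum and received no stimulus (Control), 1 nM AngII, 10 µg/L EGF or EGF+AngII at the same doses, for 6 h or 24 h. Each condition had 4 libraries, except EGF+AngII after 24 h with 3. The question was whether activation of either receptor, or of both together, changed the level of these genes.

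A C2H2 zinc finger is a short protein loop in which 2 cysteines and 2 histidines hold a zinc ion, and rows of such fingers read DNA. Most ZNF genes of chromosome 19 stand in clusters that arose by repeated duplication of neighbours, and many of their proteins also carry a KRAB domain. KRAB recruits the co-repressor TRIM28 and, through it, the histone methyltransferase SETDB1 and HP1 proteins, which silence transposable elements and other targets.

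Because the genes are copies of each other, their finger-coding sequences are close to identical in places, which limits the assignment of reads. In the GENCODE annotation on GRCh37, the build that hg19 corresponds to, 249 members were matched. A pattern of codons for a C2H2 finger occurred 0 to 36 times per member (median 12, 246 members with a coding sequence), with the largest numbers in ZNF208 (36), ZNF729 (34) and ZNF91 (31). Of 2927 complete finger windows of 84 bases in 243 members, 137 windows in 26 members were identical to a window of another member, and 529 had at least 80 bases identical. The median of the best match was 73 bases. For each of the 3 members whose levels passed a test below, the following lines show the window most alike to one of another member, above that closest window. The other windows of these members were less alike or equally so, with a median best match of 68 bases in ZNF699, 79 in ZNF714 and 63 in ZNF584. Capitals mark the cysteine and histidine codons of the finger, and all sequences read 5′ to 3′ on the coding strand.
ZNF699 finger 10, chr19:9406484-9406567, minus strand: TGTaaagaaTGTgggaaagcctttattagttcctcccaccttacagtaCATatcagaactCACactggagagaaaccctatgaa
ZNF571 finger 14, chr19:38055653-38055736, minus strand: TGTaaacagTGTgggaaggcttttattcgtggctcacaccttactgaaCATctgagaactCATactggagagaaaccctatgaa
ZNF714 finger 3, chr19:21300074-21300157, plus strand: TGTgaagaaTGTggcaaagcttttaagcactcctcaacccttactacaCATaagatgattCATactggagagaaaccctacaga
ZNF430 finger 3, chr19:21239901-21239984, plus strand: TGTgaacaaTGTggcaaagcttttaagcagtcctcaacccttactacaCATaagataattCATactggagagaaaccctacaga
ZNF584 finger 3, chr19:58928615-58928698, plus strand: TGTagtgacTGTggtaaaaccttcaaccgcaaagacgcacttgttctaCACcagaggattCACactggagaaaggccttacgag
ZNF772 finger 3, chr19:57985227-57985310, minus strand: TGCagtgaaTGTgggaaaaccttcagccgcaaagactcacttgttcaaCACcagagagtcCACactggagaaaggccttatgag
The ZNF714 and ZNF430 windows differed at 3 of 84 bases, the ZNF584 and ZNF772 windows at 10 and the ZNF699 and ZNF571 windows at 13. Over whole transcripts the sharing was lower. Of all 100-base words of a member's transcripts, a median of 1.55% also occurred in a transcript of another gene, and 15 of 249 members shared more than 50%. No such word was shared by ZNF714, against 3.3% of the words of ZNF699 and 25.3% of those of ZNF584. Of the exon bases of ZNF584, 29.5% overlapped another annotated gene. The shares of words include words from genes that overlap a member, which were not told apart from copies elsewhere.

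The 6 h libraries held 3881841 to 8540815 counts, of which 81.4% to 84.7% lay on protein-coding genes. The 24 h libraries held 6646227 to 33070903 counts, but genes of U1 small nuclear RNA took 8.9% to 57.2% of them (0.032% to 0.3% after 6 h), and the biological coefficient of variation was 29.1% against 10.6% after 6 h. Libraries of 1 condition always differed by more than sampling noise, with a chi-square per gene of 2.06 or more. The transfected AGTR1 was present in every 6 h library, with 1100 ± 106 FPM (counts per 1000000 normalized counts of the library) in Control and 1500 ± 76 with EGF+AngII (mean ± SD, n = 4), and EGR1, an early target of the EGF receptor, had 2.25 ± 0.72 FPM in Control against 57.7 ± 8.5 with EGF+AngII, a rise of 4.64 on the log2 scale (edgeR, adjusted p = 9.53e-15). Of the markers used to check the cell type, KRT8 (9.95 FPM) and KRT18 (3.51 FPM) were present in Control after 6 h and KRT19 had 0 counts. The leukocyte gene PTPRC had at most 1 count per Control library after 6 h and the hepatocyte gene ALB at most 2. In contrast, the fibroblast gene COL1A1 and the smooth muscle gene MYH11 were at 17 and 16.6 FPM (not per kilobase), above KRT8 and KRT18. Markers of other cell types were thus not all absent. PECAM1 was not analysed here. In bulk RNA, fewer cells expressing a gene and less RNA per cell cannot be told apart. The labels do not say whether libraries came from separate cultures, so p-values measure the spread between these libraries.

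Most members were expressed at low to moderate levels. After 6 h, 206 of the 253 members (81.4%) passed the filter on low counts, with mean Control levels from 1.16 to 184 FPM (median 15.8), and 176 of them lay above 5 FPM. After 24 h, 211 passed (83.4%), with 0.577 to 109 FPM (median 8.33), and 143 lay above 5 FPM. Both filters were passed by 203 members, 3 passed only after 6 h, 8 only after 24 h and 39 at neither time. Of these 39, 6 entries (ZNF788, ZNF625.ZNF20, ZNF709, ZNF321P, ZNF8 and ZNF8.1) had 0 counts in every library of both tables. By their names, ZNF8.1 is a second entry and ZNF625.ZNF20 a read-through entry, and how reads were divided among such entries is not given, so that a count of 0 does not show a silent gene. Members that did not pass after 6 h had at most 16 counts in any library.

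Per kilobase of exon, ZNF146 stood highest at both times. This member codes for a protein made almost only of zinc fingers. Its FPM values after 6 h were 184, 178, 191 and 185 in Control, 176, 182, 154 and 189 with AngII, 185, 198, 216 and 188 with EGF, and 199, 187, 192 and 188 with EGF+AngII. The 4 conditions overlapped. In Control this was 44.5 FPM per kilobase after 6 h and 26.2 after 24 h. It was followed after 6 h by ZNF460 (27.5 FPM per kilobase), ZNF581 (25.3), ZNF121 (19.3) and ZNF266 (12.6). After 24 h the order was ZNF146, ZNF460 (14.9), ZNF121 (14.7), ZNF581 (11.1) and ZNF91 (8.7). ZNF581 and ZNF121 thus exchanged places, and ZNF460 and ZNF121 after 24 h lay closer together than the spread of either. For ZNF460 and ZNF581, 24.6% and 24.9% of the exon bases overlapped another gene. Of the 10 highest members, 6 were the same at both times, and the Control levels of the 203 members correlated between the tables (Spearman's rho 0.931 across genes, which share their annotated lengths and are not replicates).

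ZNF91, which represses SVA transposable elements, had 51.6, 61.9, 56.0 and 57.9 FPM in Control after 6 h and 86.8, 114, 78.5 and 79.3 after 24 h. The median over the members that passed the filter lay the other way, at 2.97 FPM per kilobase after 6 h and 1.38 after 24 h. The 2 tables were normalized separately, and times and tables cannot be told apart, so this difference was not tested. As a share of the protein-coding counts, the 253 members together made up 0.549% to 0.594% in Control after 6 h and 0.582% to 0.647% after 24 h.

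Levels differed between regions of the chromosome. With a new neighbourhood counted wherever the gap between members exceeded 1000000 bases, the 249 members with a position fell into 16 neighbourhoods of 1 to 58 genes. In the neighbourhood of 36 genes on the short arm next to the centromere (chr19:19779605-24312770), from ZNF101 to ZNF254, 63.9% passed the filter after 6 h and the median Control level was 0.784 FPM per kilobase. In that of 29 genes at chr19:11594242-12750912, from ZNF653 to ZNF791, 62.1% passed and the median was 0.562. The 58 genes next to the long arm's end (chr19:55987984-58992597), from ZNF628 to ZNF446, had a passing share of 93.1% and a median of 3.51. The 24 genes from ZNF575 to ZNF296 (95.8%, 2.36 FPM per kilobase), the 26 from ZNF565 to ZNF573 (92.3%, 2.9) and the 38 from ZNF175 to ZNF331 (78.9%, 2.2) had medians between these. The highest median of a neighbourhood with at least 15 members was 4.42 FPM per kilobase, in the 17 genes from ZNF557 to ZNF846 (82.4%). After 24 h the medians were 0.861 and 0.425 FPM per kilobase in the neighbourhoods named first, 1.6 from ZNF557 to ZNF846 and 1.85 next to the end of the long arm. Levels also varied within a neighbourhood, and ZNF714 with 10.4 FPM per kilobase after 6 h lies in the neighbourhood next to the centromere. The words shared with other genes had a median of 0.595% there, 11.6% in the neighbourhood from ZNF653 to ZNF791 and 2.84% next to the end of the long arm, and their part in the levels was not tested. By the number of fingers, 81.2% of the 16 members with 0 to 5 fingers passed after 6 h, 80.3% of the 76 with 6 to 10, 84.2% of the 101 with 11 to 15 and 86.8% of the 53 with more. Their median levels were 3.61, 2.28, 2.1 and 3.07 FPM per kilobase.

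**Figure D1:**
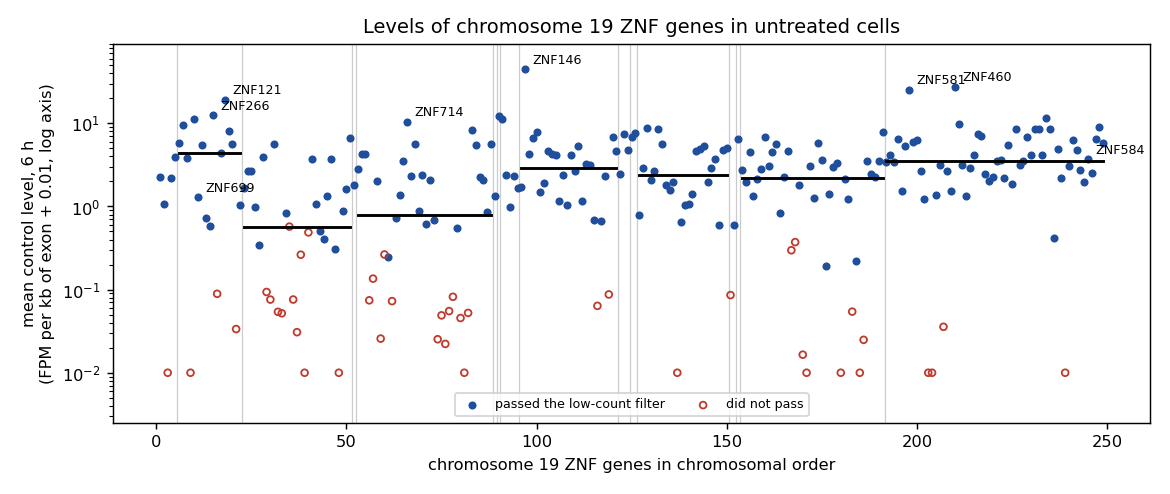
Mean Control level after 6 h (FPM per kilobase of exon plus 0.01, log axis, n = 4 libraries) of the 249 members with a position, in chromosomal order. Filled points passed the filter on low counts and open points did not, grey lines separate the 16 neighbourhoods, and black bars give the median of those with at least 15 members, from 0.562 to 4.42 FPM per kilobase.

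Few members were called with EGF after 6 h. In edgeR's quasi-likelihood test with Benjamini-Hochberg adjustment over the 18618 genes tested, 1 of the 206 tested members (0.485%) passed an FDR of 0.05, where 5.97% of all genes did. This was ZNF699, which was lower, and it was also the only member that met the study's rule for regulated genes (FDR, fold change above 1.5 and more than 5 FPM), met by 1.73% of all genes. With EGF+AngII again 1 member passed the FDR, ZNF714, which was lower, against 6.1% of all genes, and 0 were regulated, against 1.95%. AngII alone gave 0 members, against 0% of all genes, with 1 member higher and 4 lower at an unadjusted p under 0.05 (2.21% and 2.33% of all genes). No member passed for EGF+AngII against EGF (0 of 206, background 0%), with 1 higher and 8 lower at an unadjusted p under 0.05 (3.78% and 3.49% of all genes), nor for the interaction of EGF and AngII (0 of 206, background 0%), with 3 and 1 (3.8% and 4.21% of all genes). EGF+AngII against AngII gave 1 member, ZNF584, which was higher, against 5.93% of all genes. DESeq2 gave the same numbers of members for all of these comparisons.

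For most members the intervals after 6 h were narrow. For EGF against Control the 95% interval of the fold change lay wholly within 1.5-fold in either direction in 142 of 206 members (68.9%) and within 2-fold in 191. For EGF+AngII these numbers were 140 and 189, and for EGF+AngII against EGF 152 and 196. In no member did an interval lie wholly beyond 1.5-fold.

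**Figure D2:**
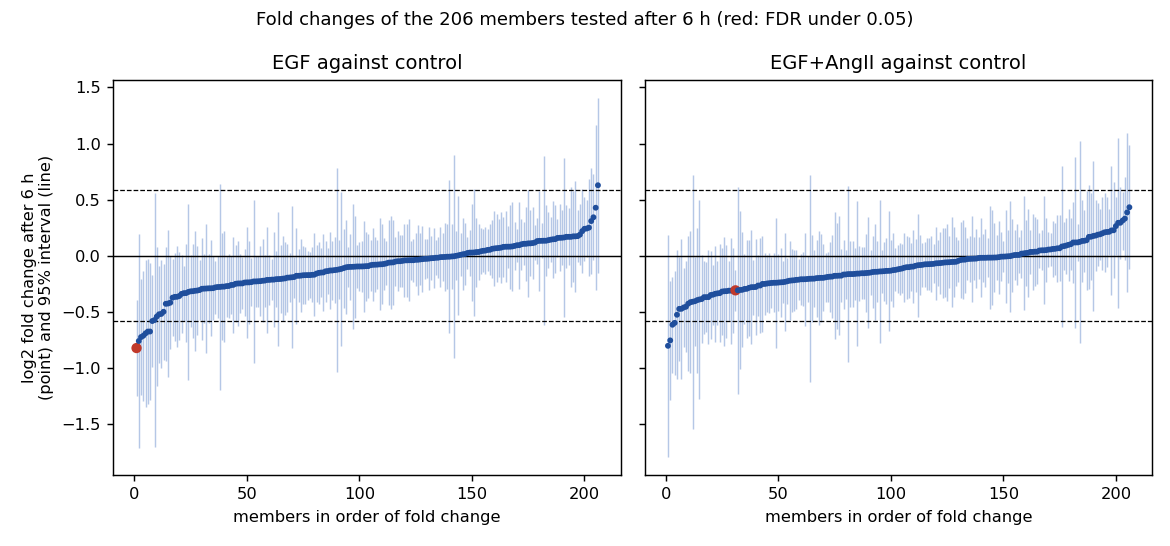
Log2 fold change (point) and 95% interval (line) of the 206 members tested after 6 h, for EGF and EGF+AngII against Control, each in order of its fold change. Dashed lines mark a 1.5-fold change, and the red points are ZNF699 with EGF and ZNF714 with EGF+AngII, which passed the FDR.

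Below the level of single genes, the members lay more often below Control than above, with small median changes. With EGF, 143 of 206 (69.4%) had a log2 fold change below 0, against 52% of all genes, and their median was -0.09 against -0.01. With EGF+AngII, 153 (74.3%) were below 0, against 52.6% of all genes, and the median was -0.12 against -0.01. With AngII alone the median was -0.03. At an unadjusted p under 0.05, 0 members were higher and 23 lower with EGF, against 10.2% and 10% of all genes. The share of lower members (11.2%) was thus near the background, and that of higher members was below it. With EGF+AngII, 3 were higher and 19 lower (9.22%), against 10.1% and 8.89%. These numbers rested in part on single libraries, with 13 lower with EGF without EGF library 4, 11 and 12 lower with EGF+AngII without EGF+AngII library 4 and Control library 3, and 1 higher with EGF+AngII without Control library 2. The number higher with EGF was 3 without Control library 2 or 3 or EGF library 4, and 1 without Control library 4, EGF library 2 or 3, AngII library 3 or 4 or EGF+AngII library 3. EGF and EGF+AngII were set against the same Control libraries. ZNF genes of other chromosomes had medians of -0.08 and -0.06, with 12 of 230 passing the FDR with either stimulus (5.22%), and the other protein-coding genes of chromosome 19 had medians of -0.10 and 0.05. With EGF a median below 0 was thus shared by both sets, and with EGF+AngII by the ZNF genes of other chromosomes. Of these ZNF genes, 61.7% lay below 0 with EGF and 63.9% with EGF+AngII. Of the other chromosome 19 genes, 66.9% and 41.5% did.

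The medians of single libraries differed little. Relative to the mean of the Control libraries, the median log2 difference of the members was -0.04, 0.0019, 0.06 and 0.0033 in the Control libraries, and -0.10, -0.07, -0.04 and -0.13 in the EGF libraries. It was -0.07, -0.09, -0.08 and -0.11 with EGF+AngII. In both groups the last-named library had the lowest value, and 1 Control library (-0.04) lay as low as the highest EGF library. With AngII it was -0.0024, -0.01, -0.10 and -0.01. After 24 h the EGF libraries lay at -0.13, -0.07, -0.02 and -0.08 and the EGF+AngII libraries at -0.07, -0.07 and -0.11, but the Control libraries ranged from -0.03 to 0.05 and 1 AngII library was lowest, at -0.15. That AngII library held 57.2% of its counts on U1 genes, the largest share of all libraries, and the part of U1 RNA in these medians was not tested. After 24 h the library numbers in the labels form 2 runs with a gap between them. After 6 h they have no gap, and 2 runs were set here where the order of conditions starts again. Whether a run marks a batch is not given. Within both runs after 6 h the EGF and EGF+AngII libraries lay below the Control libraries. After 24 h this held in the lower run, but in the higher run EGF library 3 (-0.023) lay above both Control libraries (-0.0306 and -0.0307). Library b08, missing from EGF+AngII after 24 h, belongs to the lower run. As a share of protein-coding counts, the members together had 0.549% to 0.594% in Control, 0.521% to 0.557% with EGF and 0.516% to 0.534% with EGF+AngII after 6 h, so that EGF overlapped with Control and EGF+AngII did not.

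**Figure D3:**
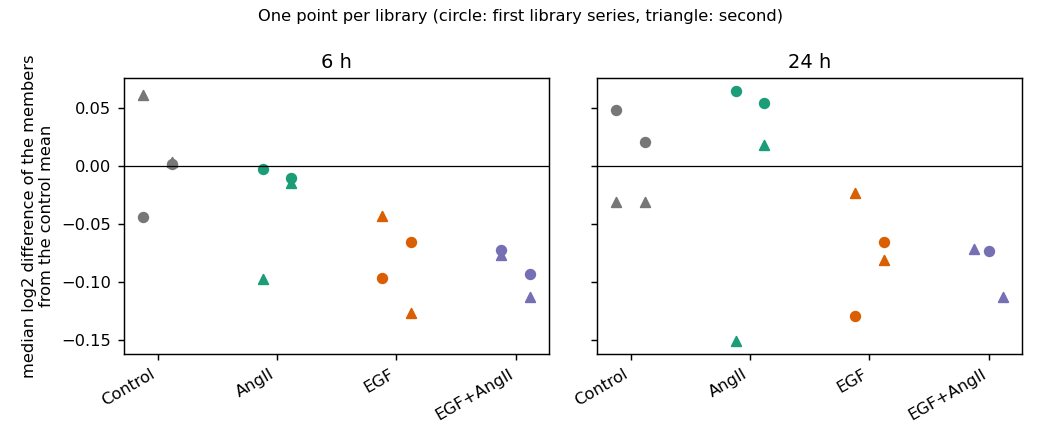
Median log2 difference of the tested members from the mean of the Control libraries, 1 point per library, after 6 h and 24 h. Circles and triangles are the lower and the higher run of library numbers, which after 6 h were set from the order of conditions. After 6 h the EGF and EGF+AngII points lie between -0.13 and -0.04.

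ZNF699, which is related to the fly gene hangover and is mutated in the developmental disorder DEGCAGS, lies at chr19:9401816-9420514 on the minus strand and has 14 fingers, of which 13 gave complete windows of 84 bases. After 6 h it had 12, 8.45, 6.51 and 7.44 FPM in Control and 4.79, 3.74, 6.00 and 4.73 with EGF. Every EGF library was below every Control library, but the Control libraries were spread widely and the first of them was the highest. With AngII the values were 6.28, 6.40, 7.34 and 8.13, and with EGF+AngII 5.18, 6.72, 5.71 and 4.66. The log2 fold change with EGF was -0.82 (standard error, SE, 0.21, 95% interval -1.25 to -0.39, edgeR adjusted p = 0.0176), and an exact two-sided permutation test gave p = 0.029, the smallest p that 4 against 4 libraries allow. Groups of 4 that do not overlap always give this p. ZNF699 was picked on these same libraries, so the permutation p is no separate support. With EGF+AngII the log2 fold change was -0.62 (SE 0.21, edgeR adjusted p = 0.0848), which did not pass. The difference between EGF+AngII and EGF was 0.21 (SE 0.22, edgeR adjusted p = 0.814). These values rest on 25 to 53 counts per library. The call with EGF was lost without Control library 1 (log2 fold change -0.64, edgeR adjusted p = 0.0784), EGF library 2 (adjusted p = 0.0628) or EGF library 4 (adjusted p = 0.0505), and was kept in the other 18 of 21 alternative fits.

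After 24 h ZNF699 went the other way without passing the test. It had 2.79, 3.28, 3.24 and 3.74 FPM in Control and 6.24, 5.96, 3.54 and 4.48 with EGF, a log2 fold change of 0.62 (SE 0.31, edgeR adjusted p = 0.607). The groups overlapped. The difference of the EGF effect between 24 h and 6 h was 1.44 (SE 0.37, joint edgeR fit adjusted p = 0.118) and did not pass, whereas DESeq2 gave 1.45 with an adjusted p of 0.0387.

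ZNF714, at chr19:21264965-21308073 on the plus strand with 12 fingers, had a mean of 83.4 ± 8.0 FPM in Control (SD, n = 4). After 6 h it had 93.2, 83.3, 83.5 and 73.6 FPM in Control, 87.5, 81.0, 68.5 and 80 with AngII, 78.9, 76.7, 81.0 and 74.2 with EGF, and 70.6, 74.3, 61.9 and 62.4 with EGF+AngII. The EGF+AngII group had the lowest mean, and 1 Control library, 1 AngII library and 1 EGF library lay within its range. Within each of the 2 runs set for 6 h, both EGF+AngII libraries lay below both Control libraries. The log2 fold change with EGF+AngII was -0.31 (SE 0.09, 95% interval -0.49 to -0.13, edgeR adjusted p = 0.0367), smaller than 1.5-fold. An exact two-sided permutation test gave p = 0.057 (n = 4 against 4). ZNF714 was picked on these same libraries, so this permutation p is no separate test. With EGF it was -0.10 (SE 0.09, edgeR adjusted p = 0.568), and EGF+AngII against EGF was -0.21 (SE 0.09, edgeR adjusted p = 0.677). The call depended on single libraries: it was lost in 9 of 16 fits that left out a library, namely Control library 1 (adjusted p = 0.104, edgeR), 2 (0.0854) or 3 (0.0796), EGF library 2 (0.0544) or 3 (0.0526), AngII library 2 (0.0525), and EGF+AngII library 1 (0.0611), 3 (0.153) or 4 (0.136). Without the filter on low counts the adjusted p was 0.112, and with the runs set for 6 h as a block it was 0.0139 (edgeR). After 24 h the means were 48.6 ± 5.9 FPM in Control and 41.5 ± 4.5 with EGF+AngII (SD, n = 4 and 3), a log2 fold change of -0.22 (SE 0.15, edgeR adjusted p = 0.997).

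ZNF584, at chr19:58912871-58943103 on the plus strand with 8 fingers, was named after its values had been seen. It had 25.7, 25, 21.7 and 27 FPM with AngII and 33.1, 32.9, 28.3 and 35.3 with EGF+AngII, and these groups did not overlap. The Control libraries, at 26.8, 29.3, 28.4 and 28.6, overlapped with both groups, and so did the EGF libraries, at 22.9, 30.6, 30.3 and 33.2. The log2 difference between EGF+AngII and AngII was 0.39 (SE 0.11, edgeR adjusted p = 0.0421). Against Control, EGF+AngII gave 0.19 (SE 0.11, edgeR adjusted p = 0.371) and AngII -0.20 (SE 0.12, edgeR adjusted p = 0.987). The call against AngII was lost in 10 of 16 fits that left out a library, namely AngII library 1 (adjusted p = 0.0826, edgeR), 2 (0.101) or 3 (0.11), EGF+AngII library 1 (0.0893), 2 (0.0826) or 4 (0.129), EGF library 2 (0.0522) or 3 (0.0548), and Control library 3 (0.0505) or 4 (0.0541).

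**Figure D4:**
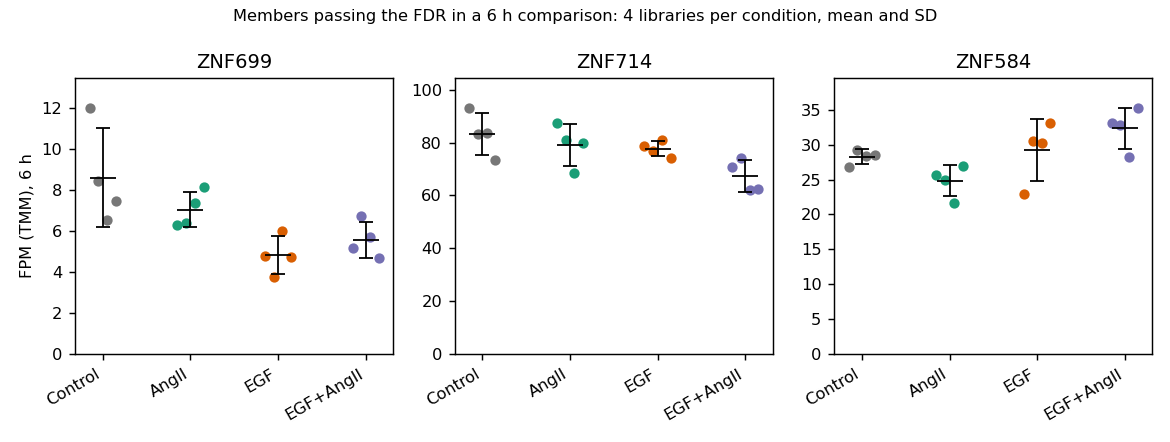
FPM after 6 h of the 3 members that passed the FDR in a comparison, 1 point per library, with mean and SD (n = 4). ZNF699 is lower with EGF (3.74 to 6.00 FPM) than in Control (6.51 to 12), ZNF714 is lowest with EGF+AngII, and ZNF584 with EGF+AngII (28.3 to 35.3 FPM) lies above AngII (21.7 to 27).

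The members just outside the FDR with EGF were ZNF233 (log2 fold change -0.58, edgeR adjusted p = 0.082) and ZNF846 (-0.73, adjusted p = 0.0921, edgeR). ZNF846 had 7.86, 6.22, 5.37 and 4.63 FPM in Control, 4.45, 1.94, 4.58 and 3.52 with EGF and 3.22, 2.91, 4.10 and 3.76 with EGF+AngII, so that all EGF and EGF+AngII libraries lay below all Control libraries. The AngII libraries, at 3.04, 4.96, 4.67 and 3.94, overlapped with Control. The adjusted p of ZNF846 with EGF+AngII was 0.0872 (edgeR). Of the 10 members with the smallest unadjusted p with EGF+AngII, 9 had a log2 fold change below 0 and 1, ZNF468, above 0. These 10 were picked by their p in this comparison. Of all genes, 8.89% were lower and 10.1% higher in it at an unadjusted p under 0.05. ZNF443 had 11.3, 8.77, 12.3 and 7.28 FPM in Control against 6.43, 6.72, 6.59 and 6.17 with EGF+AngII (log2 fold change -0.60, edgeR adjusted p = 0.128), which did not overlap. For ZNF225 the values were 11.8, 11.5, 9.20 and 8.10 against 7.51, 7.81, 8.05 and 6.02 (log2 fold change -0.46, edgeR adjusted p = 0.128), and they did not overlap either. ZNF506, ZNF528 and ZNF333 had log2 fold changes of -0.24, -0.37 and -0.34 (adjusted p = 0.136, 0.168 and 0.173, edgeR). ZNF468 had 13.9, 13.4, 17.1 and 18.4 FPM in Control and 17, 20.5, 19.5 and 21.1 with EGF+AngII, which overlapped (log2 fold change 0.31, edgeR adjusted p = 0.158).

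In counts of members whose groups did not overlap, EGF after 6 h gave 0 higher and 13 lower (6.31%), against 6.61% and 5.43% of all genes. EGF+AngII gave 1 higher, ZNF324, and 14 lower (6.8%), against 6.77% and 5.37%. ZNF324 had 49.5, 50.9, 51.7 and 52.9 FPM in Control and 53.1, 56.8, 65.7 and 61.8 with EGF+AngII, and was named after its values had been seen. The numbers of lower members were again close to the background.

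Of 16 members with a described function, 15 were tested after 6 h and 16 after 24 h, and 0 passed the FDR in any comparison at either time (smallest adjusted p = 0.126, edgeR). Against a background of 5.97% with EGF and 6.1% with EGF+AngII after 6 h, and near 0 after 24 h, this count says nothing particular about these members. ZNF274, which brings SETDB1 to the ends of ZNF genes themselves, had 65.2, 45.5, 48.7 and 49.6 FPM in Control and 47.7, 45.8, 55.1 and 51.3 with EGF+AngII (log2 fold change -0.05, SE 0.11). ZNF473, which takes part in the processing of histone mRNA, had 42.1, 49.0, 47.1 and 42.0 in Control and 45.4, 49.0, 48.5 and 43.8 with EGF+AngII (log2 fold change 0.05, SE 0.09). The imprinted gene ZNF331 had 67.3 ± 5.7 FPM in Control and 63.8 ± 4.2 with EGF+AngII. These groups overlapped in all 3 members.

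The lowest adjusted p among the 16 belonged to ZNF175, which restrains HIV transcription in macrophages. It had 19.2, 22.8, 21.7 and 18.4 FPM in Control and 18.4, 18.3, 14.6 and 13.5 with EGF+AngII (log2 fold change -0.35, SE 0.13, edgeR adjusted p = 0.126). The 24 h values of ZNF175 were 9.54 ± 0.70 FPM in Control, with a log2 fold change of 0.12 (SE 0.20). ZNF45 had 36.1, 37.2, 38.3 and 39.4 FPM in Control and 35.9, 31.6, 32.5 and 30.4 with EGF+AngII, and 33.0, 30.5, 35.4 and 33.6 with EGF. Both stimulated groups lay below Control, but neither passed (adjusted p = 0.227 with EGF and 0.18 with EGF+AngII, edgeR). ZNF224, a repressor of the aldolase A gene, had a log2 fold change of -0.39 with EGF+AngII (SE 0.19, edgeR adjusted p = 0.271), and 40.0% of its transcript words also occur in another gene. ZNF382, ZNF675 and ZNF146 had log2 fold changes above 0 with both stimuli, of 0.24, 0.11 and 0.09 with EGF. ZNF93, which represses LINE-1 elements, had 0.231 to 1.32 FPM in Control after 6 h, on at most 8 counts per library, and was not tested at this time. ZNF350, ZNF420, ZNF444, ZNF568 and ZNF580 had log2 fold changes of -0.30 to -0.01 with EGF+AngII and adjusted p from 0.291 to 0.989 (edgeR).

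**Figure D5:**
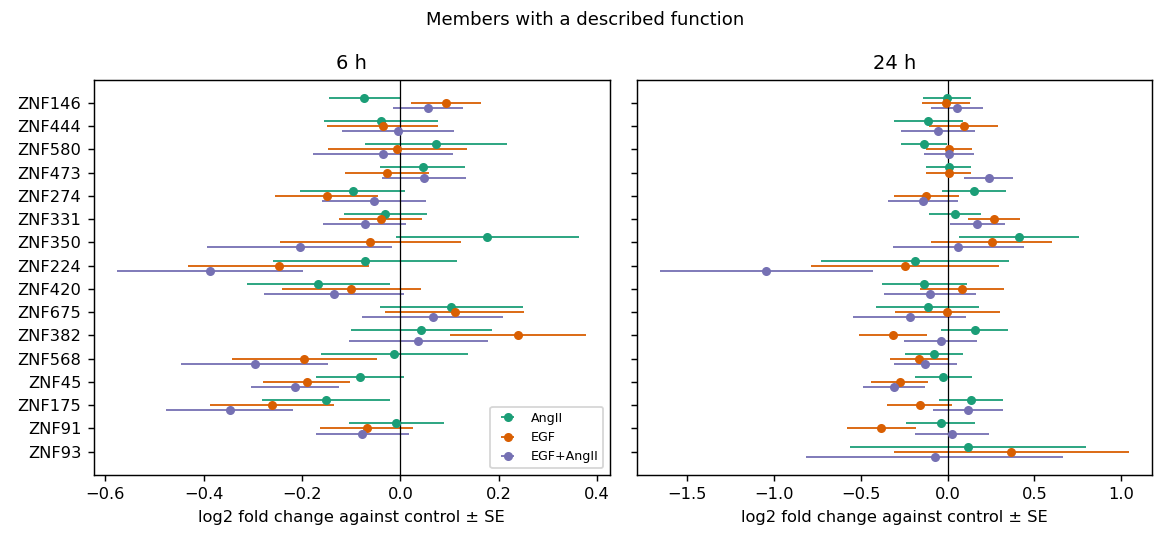
Log2 fold change against Control with its SE for 16 members with a described function, after 6 h (15 tested) and 24 h (16 tested). No member passed the FDR, and the bars are longer after 24 h, with -1.04 for ZNF224 as the lowest value.

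The co-repressor pathway that KRAB domains recruit was present and had no listed gene past the FDR. Of 23 listed genes, all 23 were tested at both times and 0 passed the FDR in any comparison. With 5.97% and 6.1% of all genes past it with EGF and EGF+AngII after 6 h and under 0.05% in each comparison after 24 h, a count of 0 in a list of this size is near the background. The list had medians of -0.04 with EGF and -0.03 with EGF+AngII on the log2 scale after 6 h and single values from -0.44 to 0.31. TRIM28 had 738 ± 149 FPM in Control and 738 ± 61 with EGF+AngII after 6 h, and SETDB1 had 113 ± 9 and 105 ± 6 (SD, n = 4).

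After 24 h, 0 of the 211 tested members passed the FDR in any of the 6 comparisons, where the background was also near 0, at 0.0316% for EGF, 0.0271% for EGF+AngII, 0.0451% for EGF+AngII against AngII and 0% for the others. At an unadjusted p under 0.05 there were 4 higher and 16 lower members with EGF (4% and 4.48% of all genes), 3 and 1 with AngII (1.27% and 1.22%) and 2 and 4 with EGF+AngII (2.92% and 2.48%), and DESeq2 also gave 0 past the FDR. The smallest adjusted p were those of ZNF773 with EGF (log2 fold change -0.86, SE 0.25, edgeR adjusted p = 0.338) and ZNF544 with EGF+AngII (-0.63, SE 0.23, edgeR adjusted p = 0.825). Both are named after their values had been seen. The precision was lower than after 6 h, with an interval within 1.5-fold in 67 of 211 members (31.8%) for EGF and 53 (25.1%) for EGF+AngII. For the other members a change of 1.5-fold lay within the interval. The medians were -0.09 with EGF and -0.10 with EGF+AngII, against -0.0032 and -0.0062 for all genes, and 62.1% and 65.4% of the tested members lay below 0, against 50.4% and 50.9% of all genes. The median with EGF was -0.06 without Control library 1 or EGF library 1 and -0.05 without Control library 2. Within the higher run of library numbers, the members' median in EGF library 3 lay above those of both Control libraries. ZNF genes of other chromosomes had 24 h medians of -0.08 with EGF and -0.06 with EGF+AngII, with 61.1% and 61.5% below 0. A median below 0 was thus shared with them. The other protein-coding genes of chromosome 19 had medians of 0.08 and 0.06, with 36.9% and 40.2% below 0.

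No member passed the edgeR test of whether an effect differed between the times, while ZNF699 passed for EGF with DESeq2 (adjusted p = 0.0387). In the joint edgeR fit, 0 of 212 tested members passed the FDR for EGF and 0 for EGF+AngII, against 0.173% and 0.123% of all genes. At an unadjusted p under 0.05 there were 11 members for EGF (5.19%, against 10.1% of all genes) and 8 for EGF+AngII (3.77%, against 7.49%). The lowest adjusted p for EGF+AngII was that of ZNF433 (difference -1.50, SE 0.56, edgeR adjusted p = 0.469).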

How the data were processed

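RNA of 32 labelled libraries was sequenced after removal of ribosomal RNA, and 31 were analysed here. The remaining EGF+AngII library after 24 h (b08) was not analysed. Per the submitters' processing notes and the methods, the authors clipped adaptors (cutadapt 1.8.1), mapped reads to hg19 (TopHat2 2.0.14) and counted them per gene with featureCounts 1.4.6. The values deposited by the authors are these raw counts. After 24 h the column names of some libraries end in filtered and those of the others do not. The ending is carried by all analysed libraries of the lower run and by EGF+AngII library 3. Libraries with it had 36% to 63.4% of their counts on protein-coding genes, and the others 20.8% to 41.6%. What the ending stands for was not examined, and its part in the 24 h values was not tested. The design text of the series names HISAT2 for mapping instead, and TopHat2 was set to report several alignments of a read. The strand setting and whether featureCounts counted reads with several alignments are not given in the sources used here. The labels state conditions and library numbers but no replicate numbers.

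TMM factors, FPM, dispersions and quasi-likelihood tests were computed with edgeR 4.0.16 (R 4.3.3) separately for 6 h and 24 h with all 4 conditions, after filterByExpr, with Benjamini-Hochberg adjustment over all genes tested. A joint fit over both times compared the effects. DESeq2 1.42.0 was an alternative. Intervals are 95% intervals from the fit. The procedure was tested on simulated counts. Finger windows came from the GENCODE coding sequences on GRCh37. Shared words were 100 bases long.

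Named members were those past the FDR for EGF or EGF+AngII against Control after 6 h, in any comparison after 24 h or regulated in any, members next to a threshold, the 5 highest per kilobase of exon in Control at each time, the 10 with the smallest p for EGF+AngII after 6 h, and 16 with a described function. Other names are marked in the text. The members and lists were chosen with earlier results of these data known. Alternatives were DESeq2, its size factors, no filter on low counts, protein-coding genes only, the run of library numbers as a block and each library left out. The runs after 6 h were set from the order of conditions, since those numbers have no gap. The medians, the counts at an unadjusted p and the values of ZNF699, ZNF714 and ZNF584 under these settings were added after the data had been seen.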

Additional observations from a re-analysis of the deposited data

Results flagged for a closer look

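In 217 combinations of a condition with 4 libraries and a named member or the summed share of the members, a library far from the other 3 was found 6 times, and chance alone flags about 10.9 of so many. The value in parentheses is the distance of that library from its neighbour as a share of the whole range of the group. After 6 h these were ZNF581 with AngII (0.883), where library 3 had 57.4 FPM and the lowest library 34.4, ZNF93 with EGF+AngII (0.952), at 0.146 to 0.902 FPM on few counts, and the share of the members in protein-coding counts with EGF+AngII (0.889), where library 4 had 0.516% and the highest library 0.534%. After 24 h they were ZNF460 in Control (0.923), where library 2 had 57.7 FPM and the highest library 60.3, ZNF568 with AngII (0.833), where library 4 had 13.5 FPM and the lowest 10.5, and ZNF468 with EGF (0.942), where library 3 had 7.4 FPM and the lowest 3.81.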

How the results depend on the processing

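Of 26 numbers of members past a threshold, 22 were 0. Over all alternatives, 538 of 564 recomputed numbers were the same or within 1.5 times. Most of the 26 numbers were 0 where few or no genes passed, so they could hardly change. With a library left out, the numbers for EGF past the FDR and regulated after 6 h each changed in 3 of 16 fits. Those past the FDR for EGF+AngII against Control and against AngII each changed in 9 of 16. With EGF+AngII after 6 h, the number passing the FDR was 1, and 0 without the filter on low counts. For the difference of the EGF effect between the times it was 0, and 1 with DESeq2 (ZNF699). The causes were not tested. With each library left out, the numbers ranged from 0 to 1 after 6 h for EGF passing the FDR and regulated, for EGF+AngII against Control and for EGF+AngII against AngII, and were 0 for the other comparisons at both times. The log2 fold change of ZNF699 with EGF was -0.94 to -0.64, that of ZNF714 with EGF+AngII -0.36 to -0.25 and that of ZNF584 between EGF+AngII and AngII 0.33 to 0.46 in these fits. The median of the tested members after 6 h stayed between -0.11 and -0.06 with EGF and between -0.12 and -0.08 with EGF+AngII, and after 24 h between -0.11 and -0.05 and between -0.12 and -0.09.

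The numbers of members at an unadjusted p under 0.05 moved more. With EGF after 6 h, 23 were lower, against 10 with DESeq2 and 13 without the filter on low counts, and 13 to 24 with each library left out. With EGF, 0 were higher, against 2 without the filter, 1 with a block for the run of library numbers and 0 to 3 where a library was left out. With EGF+AngII, 19 were lower and 3 higher, against 11 to 21 and 1 to 4 where a library was left out.

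No paired analysis was possible because replicate numbers are missing from the labels. Counting error limits members with few counts at both times. After 24 h the spread between libraries was wider. The effect of shared sequence on the values of close copies was not tested.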
